A study of Bos taurus with 42 samples.

Results

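Solute carriers are membrane proteins that move nutrients, ions, metabolites and drugs between the blood, the cell and its organelles. They were studied here as 82 genes of the bovine count table, out of 22664 genes in all, whose symbol has the form SLC, a family number, the letter A and a member number. The symbols were known for 5131 genes only, those that appear in the study's lists of selected genes, so many solute carriers of the bovine genome were not named here. A pair of further matches, *SLC17A6* and *SLC6A20*, was left out by the rule. The 82 genes were divided by substrate into 7 sugar transporters, 14 transporters of amino acids and amine transmitters, 6 of monocarboxylates and fatty acids, 11 mitochondrial carriers, 12 transporters of inorganic ions, 9 of zinc and copper, 11 of bile acids, organic anions and cations, 10 of vitamins, nucleosides, nucleotides and choline, and 2 others.

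The RNA came from 14 crossbred Angus fetuses at day 50 of gestation, conceived to a common sire. Dams of the control group (CON) were fed 100% of their requirement for growth from breeding, and dams of the restricted group (RES) were given 60% of the CON delivery. Cerebrum, liver and hind-limb muscle of each fetus were sequenced, giving 42 libraries and 7 fetuses per diet in each tissue, and the fetuses were male except for 1 of CON and 2 of RES. Library totals ranged from 4145093 to 12741299 counts, and their medians were 8130072.5 for liver, 6644024.5 for muscle and 5322765.5 for cerebrum.

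Cells take up glucose through facilitative carriers of the SLC2 family and sodium-coupled carriers of the SLC5 family, and amino acids through exchangers and sodium-coupled carriers of the SLC1, SLC6, SLC7 and SLC38 families. Carriers of the SLC25 family cross the inner mitochondrial membrane, and the ion carriers of the SLC4, SLC8, SLC9 and SLC12 families set cell pH, calcium and chloride. In the fetal liver, hepatocytes take up bile acids and organic anions through carriers of the SLC10 and SLC22 families, and the same organ makes red blood cells at this stage.

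The labelled tissues carried the markers of their cell types. The summed level of 6 hepatocyte markers had a median of 80929 CPM (reads of a gene scaled to a fixed library total) in the liver, 7.85 in the cerebrum and 10.6 in muscle. The sum of 7 neuron markers had a median of 3709 CPM in the cerebrum, and that of 8 skeletal muscle markers 1425 CPM in muscle. The liver also held 6 erythroid markers at a median sum of 12814 CPM, against 10.3 in the cerebrum and 53.7 in muscle. All levels here are CPM scaled by the trimmed mean of M-values (TMM) over the 42 libraries. They compare 1 gene between libraries, and since counts were not divided by transcript length, they do not rank one gene against another.

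Some libraries stood apart from the others of their group. In the liver, 12 mitochondrially encoded genes took 67.7% of the counts of RES fetus 1, 44.9% of CON fetus 2, 35.6% of RES fetus 6 and 30.5% of RES fetus 33, and from 4.04% to 16.4% of the other 10 liver libraries. The cerebrum of RES fetus 1 held 5701 CPM of the 3 choroid plexus markers, of which *TTR* was the most abundant, against 65.3 to 1228 CPM in the other 13 cerebrum libraries, together with the lowest sum of neuron markers, 2198 CPM. It lay above the 13 others for 9 of the 12 marker lists. Among them were erythroid cells (272 CPM against at most 91.4), hepatocytes (299 against 142) and skeletal muscle (92.5 against 15.3). Epidermis (49.8 against 6.79), leukocytes (15.1 against 5.26) and meninges (13.6 against 3.11) were others. These lists were short, with 2 genes each for epidermis and leukocytes and *PTGDS* alone for meninges. The mean of *PTGDS* was higher in muscle (52.8 CPM) and liver (28.3) than in the cerebrum (2.53). The muscle of CON fetus 73 held 1476 CPM of neuron markers and that of RES fetus 1 held 341 CPM, against 14.7 to 60.9 CPM in the other 12 muscle libraries. Fits without these libraries are described with the diet results of each tissue.

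More of the solute carriers were highest in the liver than in either other tissue. A gene was called highest in a tissue when its level there passed an adjusted p of 0.05 and a log2 fold change of at least 1 against both other tissues, in edgeR's quasi-likelihood test over all 42 libraries with sex and diet as covariates. By this rule 35 of the 82 members were highest in the liver, 12 in the cerebrum and 3 in muscle, while 32 were highest in none. Among all 15972 genes tested, 19.0% were highest in the liver, 13.9% in the cerebrum and 9.79% in muscle. Of the 35, 13 carry a liver-specific label that was given to them from levels in these same libraries, as do 4 of the 12 for the cerebrum, so their order between tissues is described with no test. By the mirrored rule, 14 members were lowest in the liver (25.7% of all genes), 14 in the cerebrum (9.41%) and 2 in muscle (3.75%). Of the 65 members without such a label, 22 were highest in the liver, 8 in the cerebrum and 3 in muscle. The median log2 fold change of these 65 was 0.32 for liver over cerebrum and 0.50 for liver over muscle, against -0.17 and -0.21 over all genes. All 82 members passed the filter on low counts, and a member could pass it through 1 tissue alone, as *SLC12A1* did through the cerebrum and *SLC39A4* through the liver, so these counts are a description. A gene had a symbol only where the study had selected it, so the members are not a random draw from the genes of the table.

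In pairs of tissues, 41 members were called higher in liver than in cerebrum (27.1% of all genes) and 19 lower (33.9%). Against muscle, 40 were called higher in liver (23.2%) and 20 lower (33.5%). Muscle and cerebrum differed for fewer members, with 18 higher in muscle (18.7% of all genes) and 16 lower (18.4%). These counts include the 17 members labelled as tissue-specific from the same libraries. Of the 65 others, 28 were called higher in liver than in cerebrum and 15 lower, 27 higher in liver than in muscle and 17 lower, and 15 higher in muscle than in cerebrum and 12 lower. In such whole-tissue RNA, more cells of a type and more RNA per cell cannot be told apart. The part of the erythroid cells in the liver levels was not tested.

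**Figure D1:**
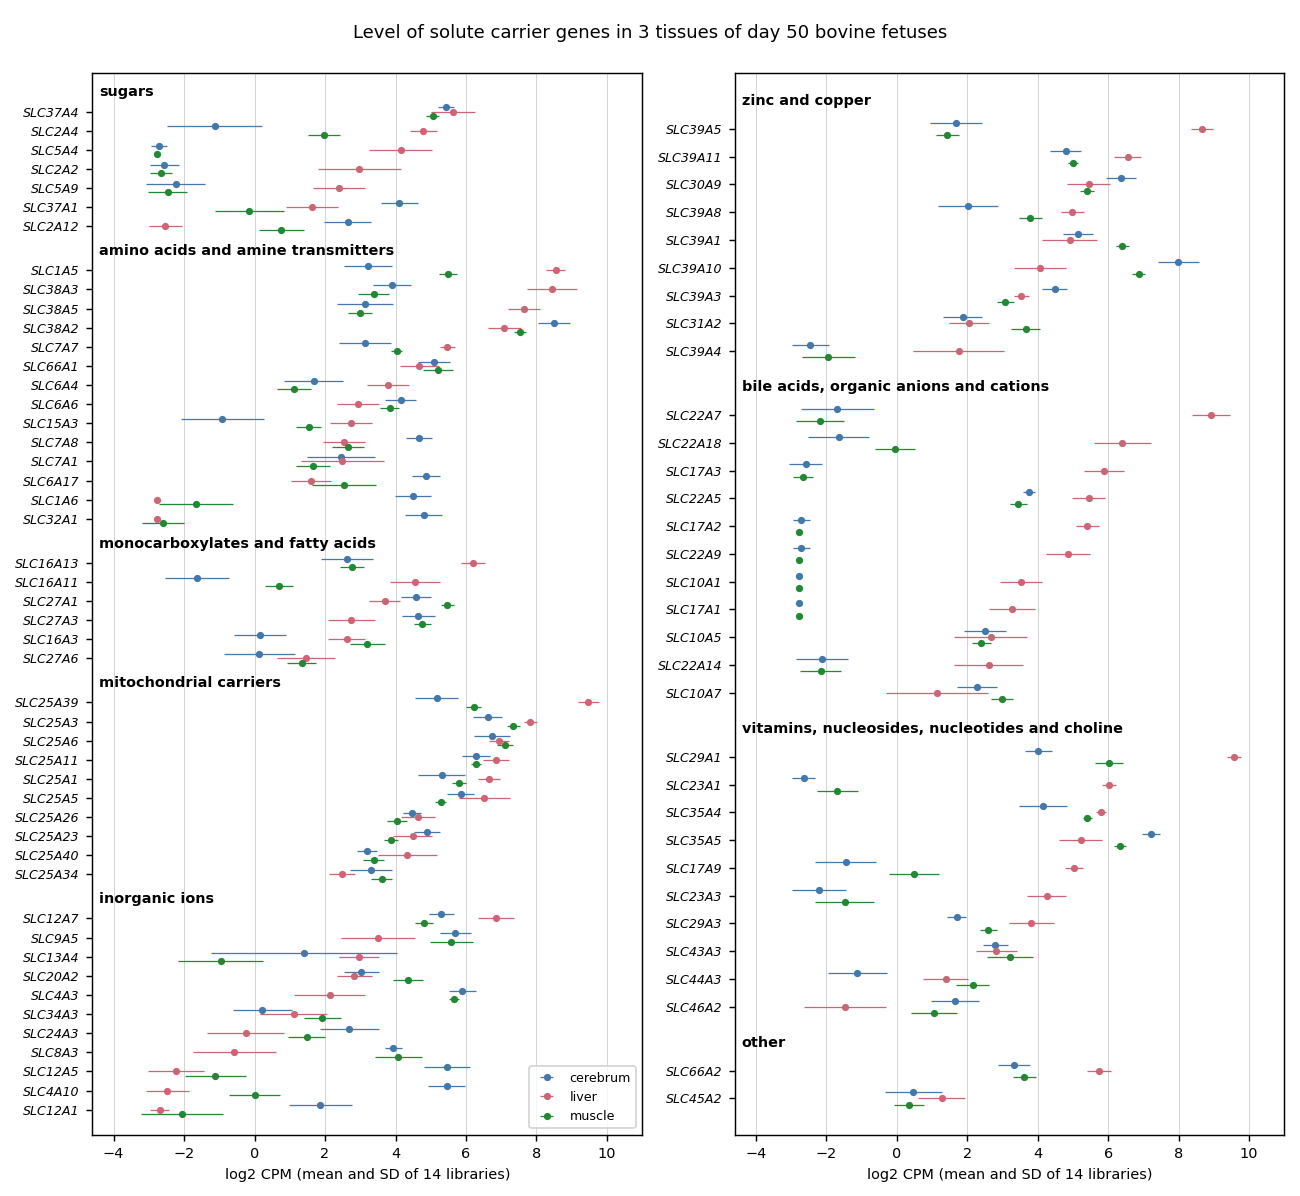
Mean log2 CPM (prior count of 1) of the members described by name in cerebrum, liver and muscle, ordered within each substrate class by the liver level; points are means of 14 libraries and bars their SD. The lowest points, near -2.8, are genes without counts; liver points lie far to the right for *SLC22A7*, *SLC39A5* and *SLC17A2*, and cerebrum points for *SLC32A1*, *SLC4A10* and *SLC12A5*.

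The sugar transporters split between liver and cerebrum. *SLC2A4*, the insulin-responsive glucose carrier best known from adult muscle and fat, had 28.3 ± 7.44 CPM (SD, n = 14) in the liver, 3.95 ± 1.203 in muscle and 0.564 ± 0.857 in the cerebrum. Its log2 fold change was 2.83 ± 0.27 (SE) for liver over muscle, and the lowest liver library, with 17.6 CPM, lay above the highest muscle library, with 6.10 CPM. *SLC2A2*, the low-affinity glucose carrier of hepatocytes, had 10.5 ± 8.53 CPM in the liver, where it ranged from 2.72 to 25.3, and no more than 1 count in any library of the other two tissues. *SLC5A4* and *SLC5A9*, sodium-coupled sugar carriers, were found at 20.9 ± 12.3 and 5.67 ± 2.50 CPM in the liver. All 14 muscle libraries lacked *SLC5A4*, so that its liver level was at least 58.1-fold higher, with 3 counts per library taken as the floor. *SLC2A12*, a further facilitative glucose carrier, was highest in the cerebrum, with 6.80 ± 3.48 CPM against 1.70 ± 0.836 in muscle, and a single count or none in each liver library. *SLC37A1*, a glucose-6-phosphate exchanger, was also highest in the cerebrum, at 18.1 ± 5.58 CPM. *SLC37A4*, which carries glucose-6-phosphate into the endoplasmic reticulum for glucose release, was highest in no tissue, with 54.5 ± 28.0 CPM in liver, 43.5 ± 6.44 in cerebrum and 33.3 ± 4.45 in muscle.

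Of the 14 carriers of amino acids and amine transmitters, 6 were highest in the liver and 5 in the cerebrum. *SLC1A5*, an exchanger of glutamine and other neutral amino acids, had 378 ± 67.6 CPM in the liver, 45.6 ± 8.09 in muscle and 10.05 ± 4.60 in the cerebrum, with a log2 fold change of 5.22 ± 0.18 for liver over cerebrum. The glutamine carriers *SLC38A3* and *SLC38A5* had 392 ± 207 and 211 ± 74.1 CPM in the liver, and no library of another tissue passed 40.2 CPM for either. *SLC7A7*, a carrier of cationic and neutral amino acids, *SLC6A4*, the serotonin transporter, and *SLC15A3*, a lysosomal carrier of histidine and small peptides, were the other three called highest in the liver. *SLC38A2*, a sodium-coupled carrier of small neutral amino acids, was highest in the cerebrum at 378 ± 122 CPM, against 186 ± 20.9 in muscle and 142 ± 41.9 in the liver. *SLC6A17*, a vesicular carrier of neutral amino acids, and *SLC7A8*, which exchanges large neutral amino acids, were also highest there, at 29.8 ± 8.04 and 25.9 ± 7.77 CPM. *SLC32A1*, which loads GABA and glycine into synaptic vesicles, and *SLC1A6*, a glutamate carrier of neurons, had 29.5 ± 10.6 and 23.7 ± 7.83 CPM in the cerebrum. Neither had a count in any of the 14 liver libraries, so the cerebrum levels were at least 48.0-fold and 38.6-fold higher. *SLC66A1*, *SLC6A6* and *SLC7A1*, which carry lysosomal cationic amino acids, taurine, and arginine and lysine at the cell surface, were highest in none. For *SLC7A1* the cerebrum had 6.15 ± 2.703 CPM, the liver 7.15 ± 4.87 and muscle 3.17 ± 1.13, and the cerebrum and liver did not differ beyond their spread.

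Carriers of monocarboxylates and fatty acids differed by tissue in several ways. The adjacent genes *SLC16A11* and *SLC16A13*, members of the monocarboxylate carrier family on chromosome 19, were both highest in the liver, with 26.7 ± 16.9 and 74.9 ± 17.7 CPM. In muscle they had 1.53 ± 0.418 and 6.89 ± 1.80 CPM, and in the cerebrum 0.262 ± 0.408 and 6.85 ± 4.44. *SLC16A3*, which exports lactate from glycolytic cells, was lowest in the cerebrum at 1.12 ± 0.725 CPM, against 6.44 ± 3.04 in the liver and 9.46 ± 3.07 in muscle. *SLC27A6*, of the fatty acid uptake family, was also lowest in the cerebrum. *SLC27A1*, a fatty acid carrier of muscle and fat, had 44.6 ± 5.80 CPM in muscle, 24.6 ± 7.23 in the cerebrum and 13.3 ± 4.05 in the liver, where the difference of muscle over cerebrum, 0.86 ± 0.14 on the log2 scale, was below the threshold of 1. *SLC27A3* was lowest in the liver, at 7.29 ± 3.67 CPM.

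Of the 11 mitochondrial carriers, 8 were highest in no tissue and none was lowest in any, though most passed the threshold in at least 1 pair of tissues. *SLC25A6*, an exchanger of ADP and ATP, had 139 ± 21.2 CPM in muscle, 124 ± 24.0 in liver and 113 ± 35.0 in cerebrum. Its largest difference, 0.31 ± 0.13 on the log2 scale for muscle over cerebrum, did not reach the fold threshold. *SLC25A11*, the oxoglutarate carrier, and *SLC25A26*, the carrier of S-adenosylmethionine, also stayed under a log2 fold change of 1 in all 3 pairs. The carrier with the largest difference was *SLC25A39*, which brings glutathione into mitochondria and is needed for red cell formation, with 726 ± 158 CPM in the liver against 74.9 ± 11.4 in muscle and 39.3 ± 21.5 in the cerebrum. *SLC25A40*, its close relative, was highest in the liver by a smaller difference, 1.30 ± 0.19 on the log2 scale over the cerebrum. *SLC25A3*, the phosphate carrier, had 228 ± 30.6 CPM in the liver, 164 ± 22.5 in muscle and 102 ± 33.5 in the cerebrum. The citrate carrier *SLC25A1*, the second ADP and ATP exchanger *SLC25A5*, the ATP-magnesium and phosphate carrier *SLC25A23* and the little studied *SLC25A34* differed past the threshold in a single pair of tissues each.

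Among the ion carriers, the liver was the lowest tissue for 7 of 12. *SLC12A5*, which extrudes chloride from neurons, had 47.8 ± 17.5 CPM in the cerebrum, 0.397 ± 0.329 in muscle and at most 2 counts in any liver library. *SLC4A10*, a sodium and bicarbonate carrier of neurons, had 46.3 ± 15.1 CPM in the cerebrum and 0.967 ± 0.508 in muscle. The potassium-dependent sodium and calcium exchanger *SLC24A3* and the sodium, potassium and chloride carrier *SLC12A1* were highest in the cerebrum as well, at 7.22 ± 3.89 and 4.05 ± 1.92 CPM. *SLC4A3*, a chloride and bicarbonate exchanger of excitable cells, *SLC8A3*, a sodium and calcium exchanger of brain and muscle, and the proton exchanger *SLC9A5* were lowest in the liver, with log2 fold changes of -3.59 ± 0.23, -4.39 ± 0.27 and -1.94 ± 0.28 for liver over cerebrum, and did not differ past the threshold between muscle and cerebrum. *SLC12A7*, a potassium and chloride carrier, was the single ion carrier highest in the liver, with 122 ± 39.3 CPM against 40.4 ± 9.63 in the cerebrum and 28.3 ± 5.17 in muscle. *SLC20A2*, a phosphate carrier, was highest in muscle at 21.2 ± 6.59 CPM. *SLC13A4*, a sulfate carrier, was lowest in muscle, and in the cerebrum it ranged from 0.122 to 113 CPM with a median of 1.77. The phosphate carrier *SLC34A3* was neither highest nor lowest in any tissue.

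Zinc carriers of the SLC39 family, which bring zinc into the cytosol, were highest in different tissues. *SLC39A5* had 413 ± 94.9 CPM in the liver and 2.63 ± 0.639 in muscle, a log2 fold change of 7.28 ± 0.22. *SLC39A8*, *SLC39A11* and *SLC39A4* were also highest in the liver, at 32.2 ± 7.19, 96.4 ± 23.6 and 4.75 ± 4.42 CPM. *SLC39A10* had 269 ± 89.9 CPM in the cerebrum, 118 ± 14.3 in muscle and 18.7 ± 8.76 in the liver. *SLC39A1* and the copper carrier *SLC31A2* were highest in muscle, at 85.0 ± 10.5 and 12.9 ± 3.70 CPM. *SLC39A3* and *SLC30A9*, a zinc carrier of mitochondria, were highest in none, although both had their largest mean in the cerebrum.

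Carriers of bile acids, organic anions and cations were the class most often highest in the liver, 9 of 11, of which 8 carry the liver-specific label. *SLC22A7*, an uptake carrier of organic anions, had 520 ± 215 CPM there, from 292 to 1086, against 0.250 ± 0.301 in the cerebrum and 0.0987 ± 0.130 in muscle. *SLC10A1*, the main bile acid uptake carrier of hepatocytes, had 12.5 ± 6.06 CPM in the liver and no count in any cerebrum or muscle library, which places the liver at least 27.6-fold and 34.7-fold higher. The neighbouring genes *SLC17A1*, *SLC17A3* and *SLC17A2* on chromosome 23, carriers of urate and phosphate, had 10.4 ± 4.78, 62.9 ± 22.4 and 43.2 ± 9.25 CPM in the liver and at most 2 counts in any other library. *SLC22A18*, *SLC22A9* and *SLC22A14* had 99.4 ± 66.0, 31.7 ± 15.4 and 7.29 ± 4.65 CPM in the liver. *SLC22A5*, the carnitine carrier, was the 1 member of this class highest in the liver without the label, with 45.3 ± 11.8 CPM against 13.4 ± 1.62 in the cerebrum and 10.9 ± 1.81 in muscle. *SLC10A5* and *SLC10A7* were highest in none.

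Of the 10 carriers of vitamins, nucleosides, nucleotides and choline, 5 were highest in the liver and 6 lowest in the cerebrum. *SLC29A1*, the main nucleoside carrier of the cell surface, had 767 ± 104 CPM in the liver, 66.9 ± 18.8 in muscle and 16.6 ± 5.35 in the cerebrum. *SLC23A1*, which takes up vitamin C, had 65.6 ± 8.66 CPM in the liver and at most 0.429 CPM in any library of the other tissues. *SLC17A9*, a vesicular carrier of nucleotides, and *SLC29A3*, a nucleoside carrier of lysosomes, were found at 33.1 ± 5.94 and 15.2 ± 5.96 CPM in the liver, and *SLC23A3* at 20.3 ± 7.89. *SLC35A5*, of the nucleotide sugar carrier family, was lowest in the liver, at 39.6 ± 12.4 CPM against 151 ± 29.9 in the cerebrum. Its relative *SLC35A4* and the choline-like carrier *SLC44A3* were lowest in the cerebrum. *SLC46A2* was lowest in the liver and *SLC43A3*, a purine base carrier, was called neither highest nor lowest. Of the 2 other members, *SLC66A2* was highest in the liver at 54.6 ± 13.8 CPM, and *SLC45A2*, known from melanosomes, was highest in none.

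Several members were at the limit of detection outside their tissue. No library held as many as 3 counts of 6 members in the liver, 8 in muscle and 9 in the cerebrum. In the liver these were *SLC1A6*, *SLC32A1*, *SLC12A1*, *SLC12A5*, *SLC4A10* and *SLC2A12*. In the cerebrum they were *SLC10A1*, *SLC17A1*, *SLC17A2*, *SLC17A3*, *SLC22A9*, *SLC2A2*, *SLC5A4*, *SLC23A1* and *SLC39A4*, and in muscle the first 7 of these with *SLC22A14*. A count of 3 was worth from 0.235 to 0.724 CPM of raw depth, depending on the library, and this covers counting error only. On the TMM scale of the levels given here, it was worth a mean of 0.614 CPM in the liver, 0.451 in the cerebrum and 0.359 in muscle. The 0.235 belongs to the liver of RES fetus 1, where a TMM factor of 0.189 makes 3 counts worth more on that scale.

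The comparison of the diets asked which carriers differed in fetuses of restricted dams. In edgeR's quasi-likelihood test with sex as a covariate, fitted within each tissue over all genes, where p values measure the spread between fetuses, no member and no other gene passed an adjusted p of 0.05. The members' lowest adjusted p was 0.184 (liver), 0.457 (muscle) or 0.999 (cerebrum). After the filter on low counts, the liver fit held 74 members, the muscle fit 65 and the cerebrum fit 63. At an unadjusted p of 0.05, 19 liver members passed (24.1% of all genes did), 8 muscle members (9.91%) and 2 cerebrum members (2.55%). Both cerebrum members were higher in RES (2.18% of all genes were) and none was lower (0.363%). The members' shares were near these backgrounds in these fits, while without the sex covariate 13 of 74 liver members passed against 9.96% of all genes. The CON and RES ranges of CPM overlapped for every member tested in every tissue, and over all genes non-overlapping ranges made up 0.0132% (cerebrum), 0 (liver) and 0.100% (muscle). DESeq2's Wald test called 78 genes in the liver (0.577%), among them the members *SLC16A11* and *SLC25A23*, 14 genes and no member in muscle (0.0937%), and none in the cerebrum.

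**Figure D2:**
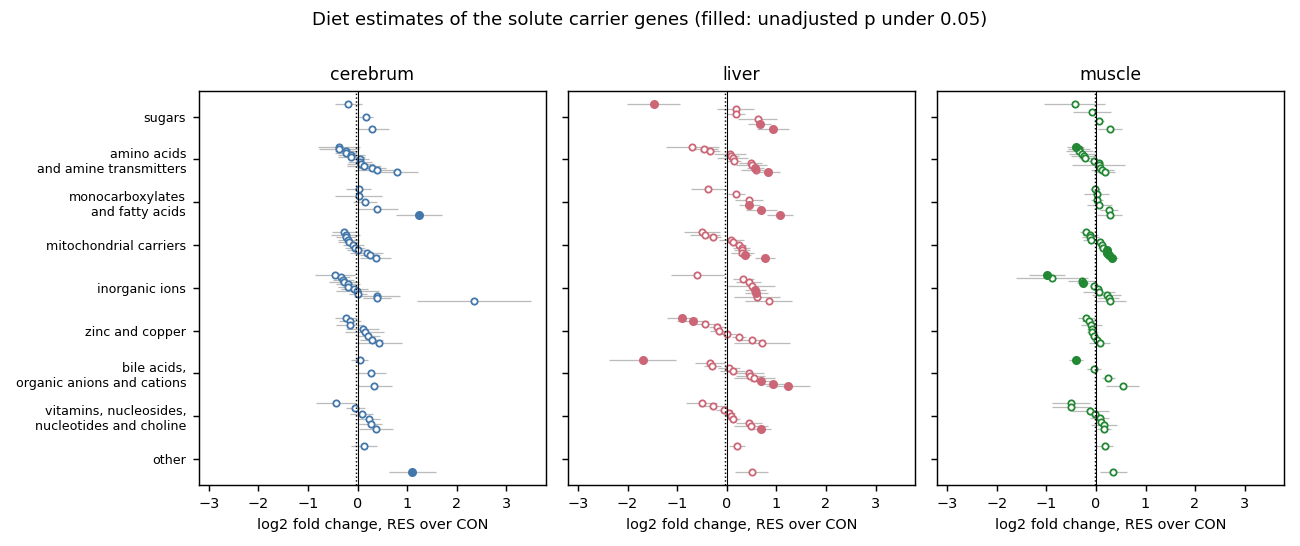
Log2 fold change of RES over CON with its SE (grey bars) for each member tested, by substrate class, in cerebrum, liver and muscle; filled points have an unadjusted p under 0.05 and the dotted line is the median of all genes tested. None passed after adjustment; 54 of 74 liver points, 34 of 65 muscle points and 36 of 63 cerebrum points lie to the right of 0.

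In the liver, 54 of 74 members had higher estimates in RES (47.9% of all genes had) and 20 lower, with a median log2 fold change of 0.25 against -0.03 over all genes. The 19 with an unadjusted p under 0.05 were 15 higher (13.5% of all genes were) and 4 lower (10.6%). Of the 69 members without a label of differential expression in any tissue, 49 had higher estimates, the median was 0.20, and 11, or 15.9%, were higher and 4 lower at an unadjusted p under 0.05, against the same shares of all genes. These 69 are not free of selection by diet, since 65 of the 82 members were listed by the study for altered co-expression between CON and RES in these libraries, 27 of them in the liver. *SLC16A11* had the lowest p. It ranged from 14.4 to 22.9 CPM in CON with a median of 16.2, and from 15.1 to 72.2 in RES with a median of 27.1, so that 5 RES fetuses lay above every CON fetus. The log2 fold change was 1.07 ± 0.26 (SE), with an unadjusted p of 0.000978 and an adjusted p of 0.184 in edgeR, and an adjusted p of 0.0368 in DESeq2. *SLC16A11* is among the 4 members labelled as differentially expressed in the liver from these same libraries, with *SLC38A3*, *SLC22A18* and *SLC10A5*, so the p-values of these 4 are no independent evidence and their diet values are a description.

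The glutamine carrier *SLC38A3* had a CON median of 246 CPM, from 197 to 463, and a RES median of 418, from 180 to 830. *SLC38A5*, of the same transport system and listed for altered co-expression in the cerebrum only, ranged from 131 to 215 CPM in CON with a median of 166, and from 155 to 379 in RES with a median of 225. Its log2 fold change was 0.58 ± 0.17 with an adjusted p of 0.184 in edgeR. In both, the highest levels were those of RES fetuses 1, 6 and 33. Of the 12 amino acid carriers tested in the liver, the other 10 had unadjusted p values above 0.05.

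Among organic anion carriers, *SLC22A7* ranged from 292 to 592 CPM in CON, with a median of 385, and from 298 to 1086 in RES, with a median of 578 (log2 fold change of 0.68 ± 0.20). *SLC22A18* had medians of 68.1 CPM in CON and 96.1 in RES, with 113 as the highest CON value, in fetus 2, and 261 as the highest RES value, in fetus 1. *SLC10A5*, a relative of the bile acid carriers, had medians of 3.23 and 8.19 CPM, and its highest CON value, 10.4 CPM, was again that of fetus 2. *SLC10A7*, of the same family, was lower in RES by an estimate of -1.69 ± 0.68 on the log2 scale, with medians of 5.47 and 1.24 CPM, while RES fetus 70 had the highest level of all, 9.60 CPM.

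*SLC25A23* and *SLC23A3* completed the members of lowest p that were higher in RES. *SLC25A23*, a calcium-regulated carrier of ATP-magnesium and phosphate, had a CON median of 18.03 CPM, from 13.8 to 23.7, and a RES median of 26.9, from 16.7 to 53.1. Its log2 fold change was 0.77 ± 0.20, with an adjusted p of 0.184 in edgeR and 0.0445 in DESeq2. *SLC23A3*, a relative of the vitamin C carriers, had medians of 14.6 and 24.4 CPM. For these genes RES fetuses 1, 6 and 33 were again the 3 highest, and RES fetus 70 was within the CON range.

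The glucose-linked members of the liver went in both directions. *SLC2A2* had a CON median of 14.5 CPM, from 3.12 to 25.3, and a RES median of 3.87, from 2.72 to 24.9, with an estimate of -1.47 ± 0.53 on the log2 scale. Fetus 2 was the lowest of CON, and in RES 6 of 7 fetuses were under the CON median of 14.5 CPM while fetus 70 was at 24.9. *SLC37A4* had medians of 38.0 CPM in CON and 52.2 in RES, and RES fetuses 1 and 6 were at 118 and 110 CPM. *SLC5A4* had medians of 17.4 and 24.9 CPM. The zinc carrier *SLC39A1* was lower in RES, with a median of 18.9 CPM, from 12.6 to 52.6, against 47.4 in CON, from 13.5 to 55.9 (log2 fold change of -0.90 ± 0.30). *SLC39A10* was lower as well, with medians of 26.0 and 13.2 CPM, while the 7 other members of the zinc and copper class had unadjusted p values above 0.05. Other members under an unadjusted p of 0.05 in the liver were *SLC20A2*, *SLC25A1*, *SLC27A1* and *SLC27A3*, with log2 fold changes from 0.37 to 0.69.

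The estimates of these liver members were smaller in fits that took the mitochondrial share of the libraries into account. The 19 members were picked by their p in the full fit, so their smaller estimates in refits of the same libraries are a description. With the mitochondrial genes left out of the counts, 19 of 74 members passed an unadjusted p of 0.05 in edgeR (23.4% of all genes). CON fetus 2, at a share of 44.9%, lay past all 6 other CON fetuses in the RES direction for 15 of the 19 members, as it did for 73.2% of all genes with an unadjusted p under 0.05. It was the highest or lowest CON library for 52 of the 74 members (61.1% of all genes). RES fetus 70, at 4.34%, had levels within the CON range for *SLC16A11*, *SLC25A23*, *SLC22A7*, *SLC39A1* and *SLC2A2*, and below it for *SLC38A3*. RES fetuses 25, 52 and 55 also had low shares, of 12.5%, 9.61% and 12.6%, within the 4.04% to 16.4% of 6 CON livers, and did not lie with CON in every gene. Their *SLC2A2* levels of 4.03, 5.93 and 3.87 CPM were below those of all 6 of these CON livers, the lowest of which had 6.29. Their *SLC22A7* levels of 590, 559 and 560 CPM were above the highest of them, 435. These splits leave out RES fetus 70, are given for 2 genes only and were not counted over all genes. Without the 4 libraries above 30%, which left 6 CON and 4 RES fetuses, all 19 members kept their direction and all had smaller estimates, and 4 of them (*SLC25A23*, *SLC38A3*, *SLC22A7* and *SLC39A1*) kept an unadjusted p under 0.05, with estimates of 0.43 ± 0.16, 0.47 ± 0.19, 0.50 ± 0.18 and -0.66 ± 0.23. In that fit 6 of 74 members passed this level (6.86% of all genes), the median estimate of the members was 0.09, and the lowest adjusted p was 0.633. The 6 were 4 higher (3.54% of all genes) and 2 lower (3.32%). Over all members in that fit, 44 had higher estimates in RES (49.9% of all genes had) and 30 lower. The estimate of *SLC16A11* was 0.40 ± 0.21, that of *SLC38A5* 0.28 ± 0.14 and that of *SLC2A2* -1.13 ± 0.64. *SLC22A18* went from 0.93 to 0.31 ± 0.19, *SLC10A5* from 1.24 to 0.47 ± 0.41, *SLC37A4* from 0.66 to 0.14 ± 0.16 and *SLC5A4* from 0.94 to 0.51 ± 0.39, while *SLC10A7* was at -1.33 ± 0.81. With the mitochondrial share as a covariate instead, 10 members passed an unadjusted p of 0.05 (5.52% of all genes), 7 of them from the 19. The 10 were 9 higher (3.36% of all genes) and 1 lower (2.16%). There, 50 of 74 members had higher estimates in RES (52.2% of all genes had) and 24 lower. In this covariate fit *SLC2A2* was at -0.38 ± 0.31, *SLC10A7* at -0.37 ± 0.44 and *SLC39A1* at -0.30 ± 0.18, all with an unadjusted p above 0.05, and *SLC16A11* at 0.56 ± 0.23. The sum of hepatocyte markers also differed between these libraries and was lower in RES for most of them. It ran from 81275 to 139511 CPM in CON livers other than fetus 2, which had the lowest sum, 32322. In RES livers other than fetus 70, which had the highest, 141059, it ran from 50113 to 80584 CPM. Over all livers the CON and RES sums overlapped, since these fetuses were set apart only after their values were seen. *AHSG* was the most abundant of the hepatocyte markers, with a mean of 59293 CPM. The part of this sum in the estimates was not tested. Erythroid markers ranged from 9899 to 17802 CPM.

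**Figure D3:**
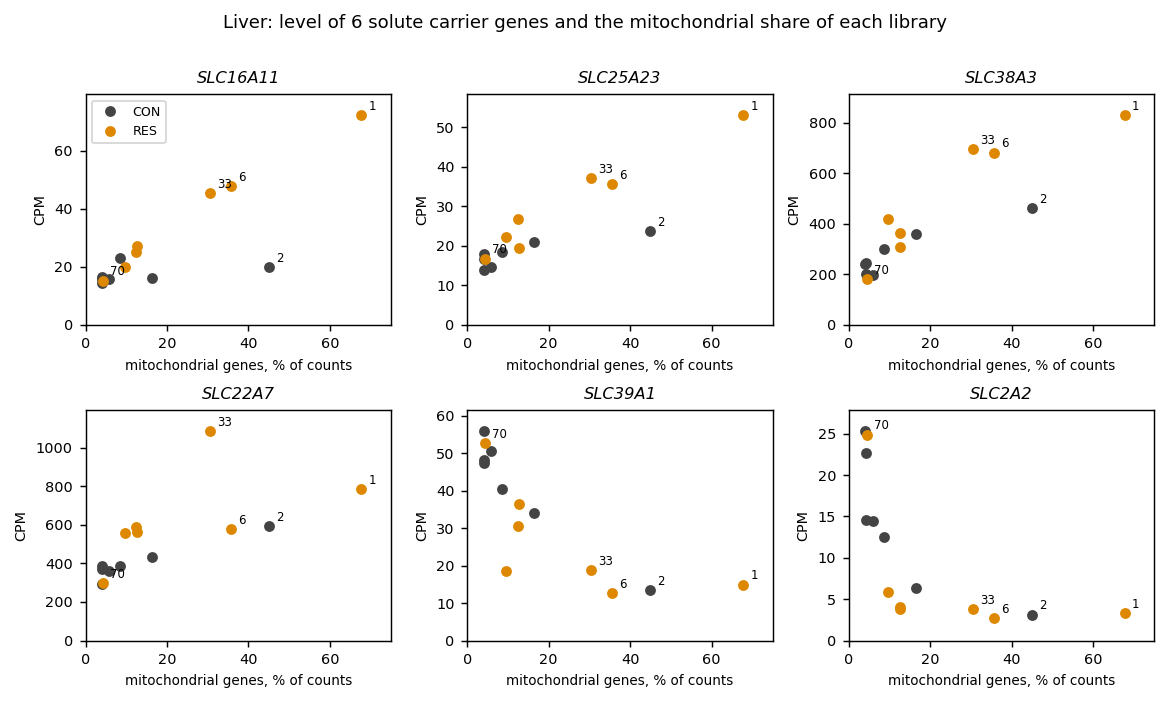
Level in CPM of 6 members in each of 14 liver libraries against the share of counts from 12 mitochondrial genes, in CON (grey) and RES (orange); numbers mark the 4 fetuses above 30% and RES fetus 70. *SLC16A11*, *SLC25A23* and *SLC38A3* are highest in RES fetus 1 at 67.7%, and *SLC39A1* and *SLC2A2* are low in all 4 libraries above 30%. RES fetus 70 at 4.34% lies within the CON range, except for *SLC38A3*, where it lies below it. The 3 other RES fetuses of low share lie below the CON fetuses of low share for *SLC2A2* and above them for *SLC22A7*. Such splits were not counted over all genes.

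In muscle, 4 of the 8 members under an unadjusted p of 0.05 were mitochondrial carriers with higher estimates in RES, all of small size. *SLC25A39* ranged from 61.5 to 78.4 CPM in CON with a median of 67.3, and from 65.8 to 97.5 in RES with a median of 76.6. Its log2 fold change was 0.26 ± 0.08, with an unadjusted p of 0.0033 and an adjusted p of 0.457 in edgeR. *SLC25A1* had medians of 53.0 and 60.1 CPM, and 4 RES fetuses lay above every CON fetus. *SLC25A26* had medians of 14.1 and 17.6 CPM and *SLC25A6* 132 and 155 CPM, with 5 RES fetuses above all of CON for the latter. RES fetuses 1 and 6 were the 2 highest for each of these genes. These 2 libraries also held the largest sums of the 8 skeletal muscle markers, 4172 and 4502 CPM, against 460 to 2436 in the other 12. With this sum as a covariate, all 4 carriers kept an unadjusted p under 0.05, as did 9 of the 65 members (10.9% of all genes), and the estimate of *SLC25A39* was 0.23 ± 0.06. Without RES fetus 1 and CON fetus 73 it was 0.21 ± 0.08, and *SLC25A26* and *SLC25A6* had unadjusted p values of 0.061 and 0.0636. Over the alternative fits in muscle the estimate of *SLC25A26* ranged from 0.26 to 0.39 and that of *SLC25A6* from 0.17 to 0.31.

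The 4 other muscle members under an unadjusted p of 0.05 were lower in RES (4.91% of all genes were, and 5.00% higher). *SLC10A7* had a median of 9.24 CPM in CON and ranged from 5.07 to 9.11 in RES around a median of 6.82, and 5 RES fetuses lay below every CON fetus (log2 fold change of -0.41 ± 0.14). *SLC4A10* had medians of 1.14 and 0.557 CPM, and its highest CON value, 1.95, was that of fetus 73, whose library held the neuron markers. Without CON fetus 73 and RES fetus 1 its estimate was -1.08 ± 0.33. *SLC38A5* had medians of 8.77 CPM in CON and 6.67 in RES, and *SLC12A7* 28.7 and 27.3. Over all members in muscle, 34 were higher and 31 lower, with a median of 0.02 against -0.01 over all genes, 5 of 64 members passed an unadjusted p of 0.05 without those 2 libraries (6.53% of all genes), and 6 of 65 without RES fetus 1 alone (6.93%).

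**Figure D4:**
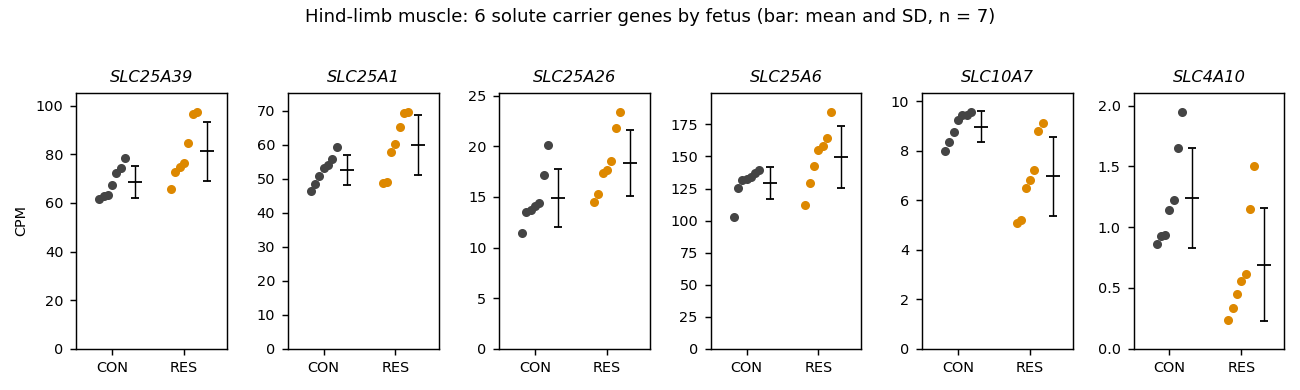
Level in CPM of 6 members in hind-limb muscle of 7 CON (grey) and 7 RES (orange) fetuses, with the mean and SD beside each group. The groups overlap for every gene. For *SLC25A6*, 5 of 7 RES fetuses are above all CON fetuses. For *SLC10A7* and *SLC4A10*, the latter at a low level, 5 of 7 are below them.

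In the cerebrum, most of the members of lowest p were highest in RES fetus 1. *SLC13A4*, the sulfate carrier, which carries a label of differential expression in the cerebrum from these same libraries, had 113 CPM in that fetus and from 0.405 to 16.7 in the other 6 RES fetuses, against 0.122 to 14.6 in CON. Its estimate was 2.34 ± 1.15 on the log2 scale with an unadjusted p of 0.0587, and 0.72 ± 0.99 without RES fetus 1. *SLC27A6*, at a low level, had medians of 0.847 CPM in CON and 1.35 in RES (log2 fold change of 1.24 ± 0.47), and its highest value, 3.77 CPM, was in RES fetus 1. *SLC45A2* had 6.79 CPM in RES fetus 1 and at most 1.81 in any other fetus. Without RES fetus 1 the estimate of *SLC27A6* was 0.94 ± 0.46 and that of *SLC45A2* 0.33 ± 0.35. *SLC38A5*, *SLC20A2* and *SLC25A3* were also highest in RES fetus 1, at 39.1, 21.1 and 199 CPM. Their estimates of 0.80, 0.39 and 0.24 became 0.22, 0.06 and 0.04 without it. *SLC12A7* and *SLC9A5* had estimates of -0.34 and -0.29. Without RES fetus 1 no member passed an unadjusted p of 0.05 (0.718% of all genes did), and 26 of 63 members were higher in RES (42.3% of all genes) instead of 36 (44.9%). That library held the most choroid plexus markers and stood above the others for most marker lists, as given above, and their part in these values was not tested.

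No diet by tissue interaction passed the adjustment for any gene in edgeR, and 9 members had an unadjusted p under 0.05 (5.62% of all genes). *SLC25A23* had the lowest, 0.00399, with a diet estimate of 0.77 in the liver (0.43 without the 4 libraries of high mitochondrial share), -0.20 in muscle and -0.19 in the cerebrum. *SLC38A5* had estimates of 0.58, -0.41 and 0.80 in the same order, with 0.28 in the liver without those 4 and 0.22 in the cerebrum without RES fetus 1. *SLC2A4*, *SLC2A2*, *SLC39A1*, *SLC38A3*, *SLC27A6* and *SLC13A4* were among the others. With the fetus as a block, which pairs the tissues of each animal, 3 members remained at this level (3.52% of all genes), *SLC2A2*, *SLC2A4* and *SLC25A23*. *SLC2A2* had at most 1 count in any cerebrum or muscle library, so its interaction compares the liver with tissues that held next to no reads of it and is not read as a difference in response. That of *SLC2A4* is not read so either, since the gene was too low in the cerebrum to be tested there and had diet estimates of 0.19 in the liver and 0.29 in muscle.

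The spread between fetuses of 1 diet was lowest in muscle. The median SD of log2 CPM within diets was 0.56 for the members and 0.50 for all genes of the liver, 0.52 and 0.52 for the cerebrum, and 0.31 and 0.26 for muscle. Members together took 0.234% to 0.254% of the counts in muscle, 0.194% to 0.329% in the cerebrum and 0.145% to 0.448% in the liver, where RES fetus 1 had the lowest share.

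Genes that work with the carriers were read from short lists, limited to those with a symbol. All 4 partner proteins (*BSG*, a chaperone of monocarboxylate carriers, *SLC51B*, a subunit of the bile acid exporter, and the scaffolds *SLC9A3R1* and *SLC9A3R2*) were highest in the liver. Their estimates there were all positive, from 0.34 to 0.98, with *SLC9A3R2* at 42.4 ± 9.33 CPM in CON and 82.1 ± 49.2 in RES (unadjusted p of 0.00192, adjusted p of 0.184 in edgeR). *SLC51B* had 31.1 ± 7.26 and 58.0 ± 29.96 CPM. Without the 4 liver libraries above 30% mitochondrial counts, the estimates were 0.31 ± 0.18 for *SLC9A3R2*, 0.21 ± 0.22 for *SLC51B*, 0.21 ± 0.16 for *SLC9A3R1* and -0.21 ± 0.14 for *BSG*, and with the mitochondrial share as a covariate they were 0.42, 0.35, 0.19 and 0.14. Of the pumps that supply ion gradients, *ATP6V1A*, a subunit of the vacuolar proton pump, was highest in the cerebrum, and its diet estimates were -0.72 ± 0.34 in the liver, -0.27 ± 0.12 in muscle and -0.28 ± 0.28 in the cerebrum. These were smaller in the other fits, at -0.36 ± 0.30 in the liver without the 4 libraries and -0.05 ± 0.14 with the covariate, -0.14 ± 0.08 in muscle without CON fetus 73 and RES fetus 1, and -0.11 ± 0.22 in the cerebrum without RES fetus 1. The 3 glucose genes *HKDC1*, *PFKFB1* and *GYS2*, a hexokinase, a regulator of glycolysis and the liver glycogen synthase, were highest in the liver, with diet estimates of 0.57, 0.77 and -0.37 there, of 0.74, 0.39 and -0.17 without those 4 libraries, and of 0.48, 0.13 and -0.26 with the covariate.

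The 5 genes of the amino acid response gave no unadjusted p under 0.05 in any tissue. *ATF4*, its transcription factor, had 929 ± 434 CPM in CON and 1299 ± 602 in RES livers, and *MTHFD2*, its target in mitochondrial folate use, had 14.3 ± 3.998 and 10.6 ± 5.67. The estimate of *ATF4* went from 0.52 to 0.24 without the 4 liver libraries and 0.0047 with the covariate, and that of *MTHFD2* from -0.57 to -0.19 and -0.10. No unadjusted p was under 0.05 for 4 genes of nutrient sensing by the mTORC1 kinase, among which the arginine sensor *CASTOR1* was highest in the liver, with a diet estimate of 0.45 there and 0.68 in the cerebrum, which became 0.09 without the 4 liver libraries and 0.11 without the cerebrum of RES fetus 1, and *RRAGB* was highest in the cerebrum. Of 8 genes of fatty acid oxidation, 3 had an unadjusted p under 0.05 in the liver, where 24.1% of all genes did, with *CPT2* at -0.46, *ACADM* at -0.93 and *ACADVL* at 0.46, and none in the other tissues. Without the 4 liver libraries these 3 were at -0.24, -0.75 and 0.15, and with the covariate at -0.21, -0.19 and 0.10, all with an unadjusted p above 0.05. No gene of these lists passed the adjustment.

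A further 14 genes with symbols of the SLC and SLCO families fell outside the naming rule. *SLCO1B3*, a hepatic uptake carrier of organic anions, and *SLC35D2*, a nucleotide sugar carrier, were highest in the liver, *SLCO5A1* in the cerebrum and *SLCO1C1*, a thyroid hormone carrier, in muscle. For diet, *SLC35B2*, which brings the sulfate donor into the Golgi, had 40.5 ± 5.05 CPM in CON and 57.8 ± 15.9 in RES livers (log2 fold change of 0.53 ± 0.15, adjusted p of 0.184 in edgeR), and 42.6 ± 4.34 and 51.1 ± 6.60 CPM in muscle. *SLC35C2* had a liver estimate of 0.68 ± 0.24 and *SLCO3A1* of -1.58 ± 0.71. Without the 4 liver libraries the estimates were 0.24 ± 0.14 for *SLC35B2*, 0.12 ± 0.16 for *SLC35C2* and -1.30 ± 0.80 for *SLCO3A1*, and with the covariate 0.30 ± 0.13, 0.20 ± 0.16 and -0.45 ± 0.66. These were the genes of that group with an unadjusted p under 0.05, 3 of 13 tested in the liver, 1 of 12 in muscle (9.91% of all genes) and 0 of 14 in the cerebrum (2.55%). The liver share was close to the 24.1% of all genes.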

How the data were processed

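RNA of cerebrum, liver and hind-limb muscle of 14 fetuses was sequenced in 42 strand-specific libraries. The authors checked reads with FastQC 0.11.8, aligned them with STAR 2.7.3a to the ARS-UCD bovine assembly and deposited raw counts per gene, with no normalization; the strand setting of the counting is not given in the sources used here. All count columns were mapped to labelled samples, leaving 0 unused value columns. Symbols were matched for 5131 of 22664 gene identifiers from the study's supplementary lists, which also hold the authors' fold changes and p-values, not used here. The members, substrate classes and gene lists were chosen with earlier results of these data known.

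Counts were analysed in R 4.3.3 with edgeR 4.0.16 (TMM factors, quasi-likelihood test) and DESeq2 1.42.0 as an alternative. A gene was dropped from a fit where 80% or more of its libraries were under 1 CPM. Diet was tested within each tissue with sex as a covariate, tissue over 42 libraries with sex and diet, and the diet by tissue interaction with sex. Standard errors were derived from the log2 fold change and its F statistic, and p-values were adjusted by Benjamini-Hochberg over all genes tested. Scripts were tested on simulated data. Named were the members with the highest level or largest tissue difference of each class, the 8 with the lowest unadjusted p for diet in each tissue, those with a label from the study, those passing any diet fit, those under 3 counts in a tissue, and the lowest pathway genes. A few members and a pathway gene are not reported here by name, though counts over members include them. Other members were named for completeness, and *SLC35B2*, *SLC35C2*, *SLCO3A1*, *SLCO1B3*, *SLC35D2*, *SLCO5A1* and *SLCO1C1* after their values were seen. The same number marks the same fetus in the 3 tissues; deviations of paired tissues from their group means had median correlations of 0.03 (cerebrum and liver), 0.06 (cerebrum and muscle) and 0.12 (liver and muscle). Alternatives covered the test, size factors, sex covariate, filters, mitochondrial genes, minimum fold, animal block and leaving out each fetus, and 4 were added after seeing the data. Precision is limited by counting at 4145093 to 12741299 counts per library. The largest total was that of the liver of RES fetus 1, with 67.7% mitochondrial counts and a TMM factor of 0.189. That total overstates its depth for other genes.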

Additional observations from a re-analysis of the deposited data

Results flagged for a closer look

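Single libraries stood far from the other 6 of their diet and tissue, by the ratio of the gap to the range, in 13 of 74 groups of values examined; chance flags about 1 in 20 groups. In the cerebrum of RES fetus 1, mitochondrial genes took 14.7% of the counts, against 2.73% to 5.01% in the other RES fetuses, choroid plexus markers summed to 5701 CPM, neuron markers summed to 2198 CPM, the lowest of RES, and *SLC45A2* was highest at a log2 CPM of 2.80. In the cerebrum of CON fetus 23, neuron markers summed to 8962 CPM, the solute carriers took 0.194% of the counts, against 0.299% to 0.311% in the other CON fetuses, and *SLC12A7* was lowest at a log2 CPM of 4.58. In the liver of CON fetus 2, mitochondrial genes took 44.9% of the counts and *SLC39A1* was lowest at a log2 CPM of 3.77. In the liver of RES fetus 70, hepatocyte markers summed to 141059 CPM, against 50113 to 80584 in the other RES fetuses. In muscle, neuron markers summed to 1476 CPM in CON fetus 73 and 341 CPM in RES fetus 1, and *SLC25A6* was lowest of CON in fetus 73 at a log2 CPM of 6.69.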

How the results depend on the processing

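Of 3688 fold changes under the alternatives, of the members of lowest p for diet and of the members called between tissues, none reversed and 3682 kept their direction and side of the threshold. The exceptions were *SLC16A11* and *SLC25A23*, which passed in the liver with DESeq2, *SLC23A3*, which was lost between muscle and cerebrum without RES fetus 52, CON fetus 54 or CON fetus 73, and *SLC12A1*, lost between liver and muscle without CON fetus 73. Among all members tested for diet, the direction changed for 18 of 63 in the cerebrum without RES fetus 1, for 14 of 74 in the liver without the libraries above 30% mitochondrial counts and 12 with that share as a covariate, and in muscle for 12 of 64 without CON fetus 73 and RES fetus 1 and 10 of 65 with the muscle markers as a covariate. DESeq2 called 78 genes with 2 members in the liver, 14 genes in muscle and 2 genes for the interaction, where edgeR called 0. Members with an unadjusted p under 0.05 in the cerebrum numbered 6 with no filter (3.51% of all genes) and 1 with the stricter filter (1.97%), against 2 (2.55%). In the liver they numbered 6 without the libraries of high mitochondrial share (6.86%), 10 with that share as a covariate (5.52%) and 13 without the sex covariate (9.96%), against 19 (24.1%). In muscle they numbered 4 without the sex covariate (7.02%) and 5 without CON fetus 73 and RES fetus 1 (6.53%), against 8 (9.91%). The replicate block, with the fetus pairing its tissues, gave 3 members for the interaction (3.52%), against 9 (5.62%), and changed no tissue or other count past 1.5 times.

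The stricter filter tested fewer genes and left 22 members higher and 11 lower in liver than cerebrum, 8 and 9 in muscle against cerebrum, 21 and 12 in liver against muscle, with 17 highest in the liver and 6 in the cerebrum. With no minimum fold, 26 members were lower in muscle than cerebrum and 9 highest in muscle.

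Leaving out each fetus in turn gave 0 to 5 members in the cerebrum (0 without RES fetus 1, 5 without RES fetus 33, 4 without RES fetus 6 or CON fetus 23, 1 without CON fetus 54 or 69), 14 to 31 in the liver (31 without CON fetus 2 or RES fetus 52), 4 to 11 in muscle (4 without RES fetus 6) and 3 to 17 for the interaction (3 without RES fetus 1, 4 without RES fetus 33, CON fetus 68 or CON fetus 69, 5 without RES fetus 6, 14 without CON fetus 23, 16 without CON fetus 2, 17 without RES fetus 70). The shares of all genes in these refits ranged from 0.718% to 4.203% in the cerebrum, 13.3% to 35.0% in the liver (35.0% without CON fetus 2 and 33.5% without RES fetus 52), 6.16% to 12.6% in muscle and 3.49% to 14.4% for the interaction (14.4% without RES fetus 70). Highest counts ranged from 35 to 36 in the liver and 11 to 12 in the cerebrum. Other causes were not tested. Counts per kilobase of transcript were not run, since transcript lengths were not used here, and depth limits members near 3 counts.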
